A study of Mus musculus with 2 samples.

Results

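Type I interferon-stimulated genes were followed through the immune cells of 143B tumors as a list of 46 genes chosen by name. The list was drawn up with earlier results of these data known. Of these, 44 were found among the 32285 mouse genes that were counted, and Mx1 and Mx2 were not analysed here. The cells came from 143B, a human osteosarcoma line, grown under the skin of female nude mice that were 4 weeks old at inoculation, and were sorted with magnetic beads against CD45, a surface protein of blood-derived cells. The control IgG group received a human IgG1 isotype antibody at 10 mg/kg and the anti-CD3L1 group an antibody against CD3L1 at 10 mg/kg, each given 4 times at intervals of 3 days. Each group gave 1 library of the droplet method of 10x Genomics, made from 3 pooled tumors whose cells cannot be told from each other. Both groups share the host, which lacks a thymus and so nearly all mature T cells, and only the mouse genes were counted here, so the human tumor cells are outside the list.

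Type I interferons (interferon-alpha, interferon-beta and relatives) are released by cells that sense viral or misplaced nucleic acid. They bind a receptor made of Ifnar1 and Ifnar2, whose kinases Jak1 and Tyk2 activate a complex that holds Stat2 and Irf9. It binds a short DNA element before its target genes and turns on many antiviral proteins at the same time. In tumors the program is known from myeloid cells and from dendritic cells.

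The element can be seen in the promoter windows of RefSeq (build GRCm38.p6, 250 bases before to 50 bases after each gene start), where 37 of the 46 genes had an entry. Its core was searched as GAAA, any 2 bases, and GAAA again, on both strands. A match was found in 21 of these 37 genes (56.8%) and in 1079 of all 27025 genes of the table (3.99%). The genes with no window in the table are Mx1, Mx2, Oas2, Usp18, Dhx58, Zbp1, Rtp4, Parp14 and Ifi27l2a. The windows below belong to the genes on which the results turn, they end at the last base before the gene start, and capitals mark the matches.
Rsad2, chr12:26456453-26456582, minus strand: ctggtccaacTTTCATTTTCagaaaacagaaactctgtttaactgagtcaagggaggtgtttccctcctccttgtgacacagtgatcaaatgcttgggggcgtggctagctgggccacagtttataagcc
Isg15, chr4:156200819-156200948, minus strand: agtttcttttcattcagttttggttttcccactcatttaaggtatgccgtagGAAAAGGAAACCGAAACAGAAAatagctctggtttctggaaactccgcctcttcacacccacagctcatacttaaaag
Ifit1 and Ifit1bl2, chr19:34640744-34640888, plus strand: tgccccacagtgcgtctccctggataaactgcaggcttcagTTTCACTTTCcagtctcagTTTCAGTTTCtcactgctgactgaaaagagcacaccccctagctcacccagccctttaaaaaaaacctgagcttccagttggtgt
Oas1a, chr5:120907526-120907655, minus strand: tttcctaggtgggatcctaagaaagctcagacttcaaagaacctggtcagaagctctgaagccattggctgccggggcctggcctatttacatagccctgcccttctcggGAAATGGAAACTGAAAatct
Oas1g, chr5:120887614-120887743, minus strand: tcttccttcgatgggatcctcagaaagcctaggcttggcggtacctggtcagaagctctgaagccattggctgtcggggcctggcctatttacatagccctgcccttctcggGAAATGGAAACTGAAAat
Slfn4, chr11:83175056-83175185, plus strand: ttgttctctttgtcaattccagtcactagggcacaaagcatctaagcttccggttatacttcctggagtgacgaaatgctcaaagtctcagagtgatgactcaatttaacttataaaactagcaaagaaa
The Isg15 window holds 3 overlapping matches and the Rsad2 window 1. Ifit1 and Ifit1bl2 point away from each other, and the 145 bases between their starts, shown on the strand of Ifit1, hold 2 matches that lie before both genes. The Oas1a and Oas1g windows each hold 2 overlapping matches and share a run of 56 identical bases. In the Slfn4 window these letters were not found.

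Cells were taken as barcodes with at least 500 unique molecular identifiers (UMIs, each standing for 1 captured RNA molecule), over 200 and under 6000 genes and under 5% mitochondrial UMIs. This left 8557 cells in the control IgG library, with a median of 5526 UMIs, and 11269 cells in the anti-CD3L1 library, with a median of 8267 UMIs. Cells were gated into classes by marker genes, none of them on the list. The neutrophil-gated class held 5572 and 498 cells, the monocyte-gated class 1471 and 3537, the macrophage-gated class 371 and 3590, the NK-gated class 162 and 984 and the dendritic-gated class 59 and 555 (control IgG and anti-CD3L1, in this order). Of the genes that the gates used, Csf3r was at 1205 and 1348 CPM in neutrophil-gated cells and C1qa at 3480 and 3872 CPM in macrophage-gated cells. Ncr1, likewise part of its gate, was at 224 and 233 CPM in NK-gated cells. Since the gates chose cells by these genes, their levels are no check of the names. The 12 neutrophil markers summed to 188654 and 78002 CPM in neutrophil-gated cells. The markers separated monocyte- and dendritic-gated cells less well. In monocyte-gated cells the 10 monocyte markers summed to 5391 and 4329 CPM and the 12 macrophage markers to 2636 and 4803 CPM. In dendritic-gated cells of the control IgG library the 15 dendritic cell markers summed to 1624 CPM, less than the monocyte markers at 1781 CPM or the neutrophil markers at 1916 CPM. CPM is the UMIs of a gene in a class per 1000000 UMIs of all its genes, so that fewer cells of a class do not by themselves change it. With 1 library per group no test was possible, and every interval given is a 95% interval of counting error only. Of the barcodes kept, 26 occurred in both libraries.

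The summed level of the 44 genes differed more between cell classes than between the libraries (the bar plot of summed levels). In the control IgG library it was 10756 CPM in monocyte-gated cells, 7640 CPM in macrophage-gated cells, 6258 CPM in neutrophil-gated cells, 6190 CPM in dendritic-gated cells and 1907 CPM in NK-gated cells. The values of neutrophil- and dendritic-gated cells did not differ beyond their intervals (6230 to 6286 and 6037 to 6347 CPM), and the other neighbours in this order did. In the anti-CD3L1 library the order was 12521 CPM in monocyte-gated, 11380 CPM in neutrophil-gated, 9347 CPM in macrophage-gated, 6663 CPM in dendritic-gated and 2229 CPM in NK-gated cells. The neutrophil-gated class thus stood below the macrophage-gated class in CPM under control IgG and above it after anti-CD3L1. The median log2 ratio of all genes was 0.60 in the neutrophil-gated and 0.025 in the macrophage-gated class. Scaled by these medians, the summed ratios of both classes were close to each other, as given under processing. The change of order therefore depends on the scaling. Plasmacytoid dendritic-gated cells, only 16 and 196 of them, held 5285 and 5411 CPM. Over all cells the sum was 7391 CPM under control IgG and 9107 CPM after anti-CD3L1, a log2 ratio of 0.30. The libraries differ in their cells, and with the anti-CD3L1 levels of each class weighted by the UMI shares of the control IgG classes the sum was 10693 CPM. With the control IgG levels weighted by the anti-CD3L1 shares it was 7533 CPM. The size of the difference over all cells thus depends on the shares used.

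**Figure D1:**
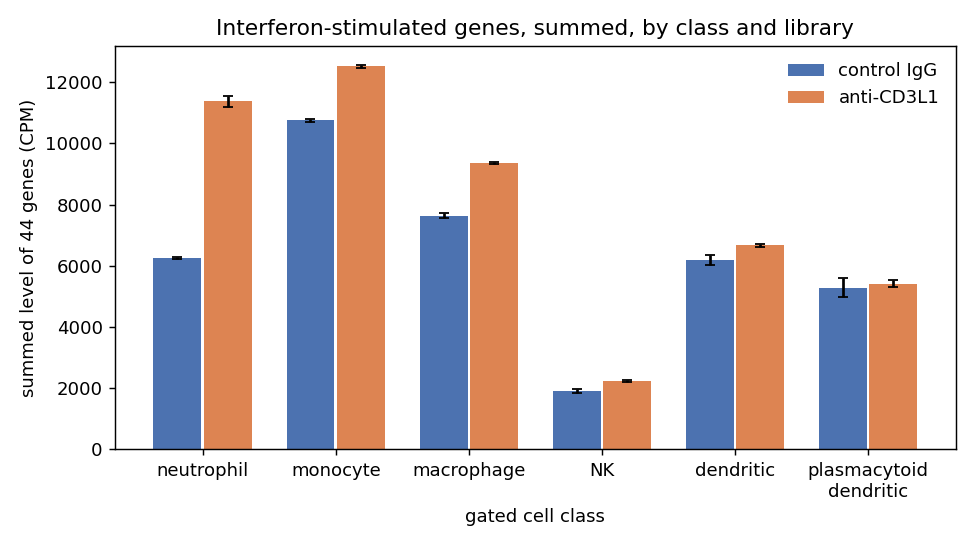
Summed level of the 44 interferon-stimulated genes (vertical axis, CPM) in 6 gated cell classes (horizontal axis), with a bar for each library and whiskers for the 95% Poisson interval. The largest gap between the libraries is in neutrophil-gated cells, at 6258 and 11380 CPM, and the lowest levels are in NK-gated cells.

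Of the 5 main classes, neutrophil-gated cells showed the largest difference between the libraries in CPM. Their summed level was 0.86 higher on the log2 scale after anti-CD3L1 (interval 0.84 to 0.89), against 0.22 in monocyte-gated, 0.29 in macrophage-gated, 0.22 in NK-gated and 0.11 in dendritic-gated cells. The log2 ratio exceeded that of monocyte-gated cells by 0.64 (0.62 to 0.67) and that of macrophage-gated cells by 0.57 (0.54 to 0.60). Among the 39 listed genes with a mean of at least 10 CPM, 20 were at least 2-fold higher and 0 at least 2-fold lower. Some of the higher genes, among them Ifi44, Ifit3 and Ifit3b, were under 10 CPM under control IgG. They met the mean only through their level after anti-CD3L1. The background in this class was high, however, since 32.8% of all 5775 genes at that level were at least 2-fold higher and 3.12% at least 2-fold lower. The median log2 ratio was 1.02 over the listed genes and 0.60 over all genes. Measured against that median of 0.60, the summed level was 0.26 higher on the log2 scale, 11 listed genes were at least 2-fold higher and 3 at least 2-fold lower, beside 17.02% and 9.46% of all genes. With each class scaled by its own median, the summed ratio no longer exceeded that of macrophage-gated cells. It exceeded that of monocyte-gated cells by less, as given under processing.

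The neutrophil-gated cells of the 2 libraries were not alike in other respects. Their median depth was 4497 UMIs under control IgG and 2154 UMIs after anti-CD3L1. S100a8, a calcium-binding protein that granulocytes make in large amounts, stood at 68755 and 21268 CPM and Retnlg at 5586 and 2558 CPM, while Cxcr2 stood at 363 and 305 CPM. With S100a8 and S100a9 left out of the totals, the summed log2 ratio of the list was 0.69. The 12 macrophage markers, each with a UMI in both libraries, summed to 150 and 1105 CPM, and the 4 markers of mast cells or basophils to 0.354 and 249.6 CPM, and the part of the latter in the result was not tested. In cells without any UMI of C1qa, C1qb or C1qc, 5148 and 378 of them, the summed log2 ratio of the list was 0.93. Macrophage RNA without a C1q UMI is not removed by this step.

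Depth was therefore matched by keeping only neutrophil-gated cells with 1000 to 3000 UMIs, 703 under control IgG and 341 after anti-CD3L1, with medians of 2490 and 2052 UMIs. This choice was made after the values of all cells were seen. It kept a small part of the 5572 control IgG cells and most of the 498 anti-CD3L1 cells. The cells kept were still unlike in other respects. S100a8 and S100a9 together stood at 109893 and 80485 CPM, and C1qa, C1qb and C1qc together at 19.4 and 114.5 CPM. The part of these differences in the ratios at matched depth was not tested. The background fell to 10.4% of 5229 genes at least 2-fold higher and 5.22% at least 2-fold lower, and the median of all genes to 0.19. The summed level of the list was still 0.80 higher on the log2 scale (0.76 to 0.84), from 7224 to 12554 CPM. Of 39 listed genes tested, 13 (33.3%) were at least 2-fold higher and 1, Oas1g, at least 2-fold lower. Oas1g rests on 27 and 4 UMIs there, and the interval of its ratio holds 0 (−3.47 to 0.024). Among the higher genes, Xaf1 at 9.09 CPM and Dhx58 at 7.88 CPM were under 10 CPM under control IgG. Both met the mean only through their level after anti-CD3L1. Dhx58 rests on 13 and 12 UMIs, and its interval holds 0 (−0.12 to 2.39).

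Among the antiviral effectors, Rsad2 (viperin, an enzyme that makes a chain-terminating nucleotide) stood out in neutrophil-gated cells. Its level was 345 CPM under control IgG and 1676 CPM after anti-CD3L1, a log2 ratio of 2.28 (2.21 to 2.34), and in cells of matched depth 563 and 1839 CPM, a log2 ratio of 1.71 (1.59 to 1.83). In the control IgG library monocyte-gated cells had the highest level of the 5 classes, at 517 CPM. In the anti-CD3L1 library neutrophil-gated cells did, followed by monocyte-gated cells at 681 CPM. The free RNA of that library, read from barcodes with 10 to 100 UMIs, held 431 CPM of Rsad2, less than the level in the neutrophil-gated cells. Cmpk2, the nucleotide kinase encoded beside Rsad2, went from 13.3 to 75.6 CPM in neutrophil-gated cells, and from 20 to 99.98 CPM at matched depth.

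The IFIT proteins bind viral RNA ends and block its translation. In neutrophil-gated cells Ifit3 was at 7.04 CPM under control IgG and 68.5 CPM after anti-CD3L1, a log2 ratio of 3.28 (2.92 to 3.63). Its near copy Ifit3b was at 7.01 and 65.6 CPM, a ratio of 3.23 (2.86 to 3.58), and reads that match both copies may be lost or split between them. At matched depth the ratios were 2.28 for Ifit3 and 2.54 for Ifit3b. Ifit2 was at 12.8 and 50.6 CPM, with a log2 ratio of 1.98 that dropped to 1.04 at matched depth.

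Ifit1 and Ifit1bl2, the pair that shares the 145 bases shown above, differed in their spread over the classes. Ifit1 was found in every class, in the control IgG library with 53.1 CPM in neutrophil-gated, 74.7 CPM in monocyte-gated and 76.3 CPM in macrophage-gated cells. Ifit1bl2, a gene related to Ifit1, was at 31.7 CPM in neutrophil-gated cells against 2.38 CPM in monocyte-gated and 3.30 CPM in macrophage-gated cells. In neutrophil-gated cells both were higher after anti-CD3L1, Ifit1 at 153 CPM (log2 ratio 1.52) and Ifit1bl2 at 114 CPM (1.85, interval 1.60 to 2.09). At matched depth the ratios were 0.93 and 1.75. In monocyte-gated cells neither was higher by a like amount, with Ifit1 at 68.1 CPM and Ifit1bl2 at 2.67 CPM after anti-CD3L1. Ifit1bl2 read in free RNA was 4.26 CPM, far under its level in these neutrophil-gated cells. Ifit1bl1 was under a mean of 10 CPM in neutrophil-gated cells and at 10.4 and 9.94 CPM in monocyte-gated cells.

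**Figure D2:**
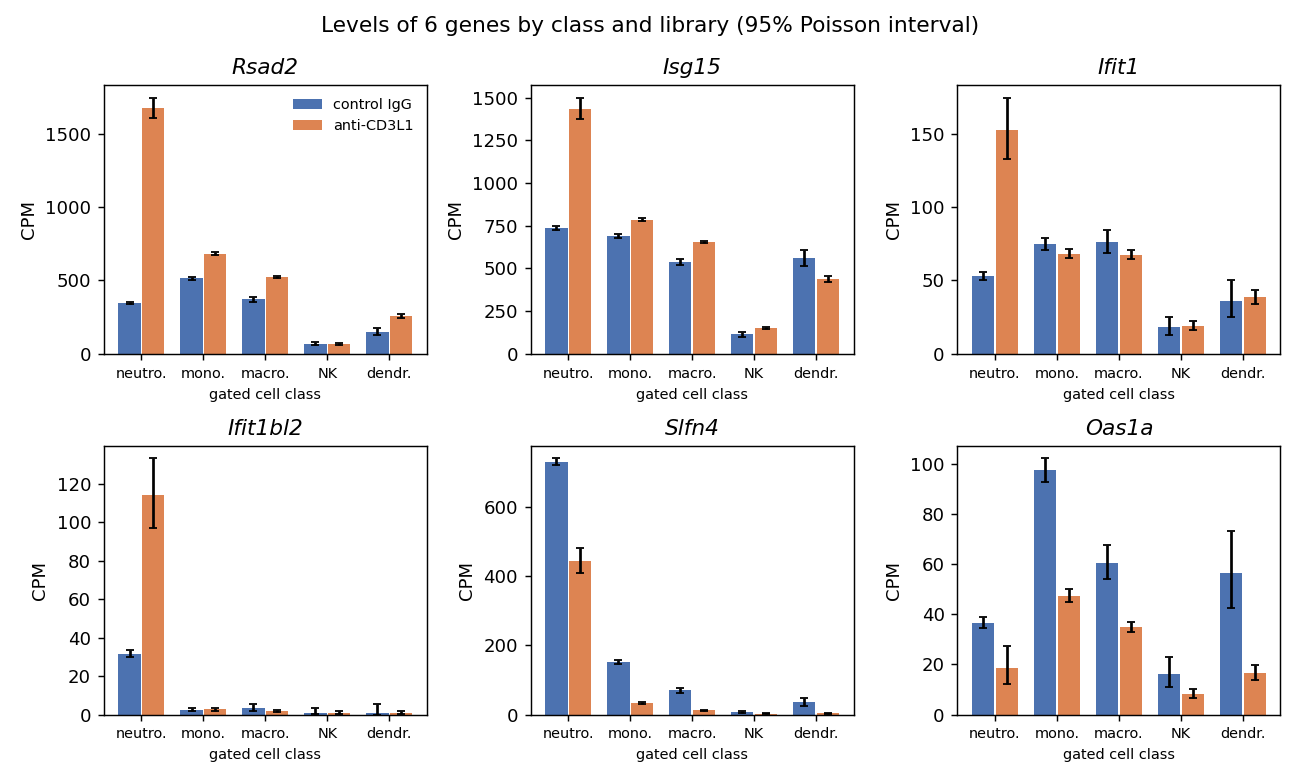
Levels of Rsad2, Isg15, Ifit1, Ifit1bl2, Slfn4 and Oas1a (vertical axis, CPM, each panel with its own scale) in 5 gated classes (horizontal axis), a bar for each library, with 95% Poisson intervals. Rsad2, Ifit1 and Ifit1bl2 are highest in neutrophil-gated cells of the anti-CD3L1 library, while Slfn4 and Oas1a are lower in that library in all 5 classes. Slfn4 in NK-gated cells is too low to read a direction once free RNA is subtracted.

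Other effectors of the group had ratios that depended on depth to unlike extents. Ifi27l2a, a small mitochondrial protein, was at 449 and 2067 CPM in neutrophil-gated cells (log2 ratio 2.20) and kept a ratio of 2.11 at matched depth. Zbp1, a sensor of Z-form nucleic acid that can start cell death, was at 44.4 and 141 CPM (1.66, and 1.55 at matched depth). Xaf1 was at 13.9 and 44.9 CPM (1.70, and 2.39 at matched depth). Ifi44 had the largest ratio of the 39 genes, 3.81, from 1.48 to 20.7 CPM, yet only 3 and 1 UMIs of it were read at matched depth, where its ratio was −0.33 (−6.04 to 3.31). Like Ifit3 and Ifit3b, it passed the filter of 10 CPM only through its level after anti-CD3L1. Ifi35 had a ratio of 1.33, Rtp4 of 0.80, Parp14 of 0.47, Isg20 of 0.44 and Samd9l of 0.23. Of 16 effectors tested in neutrophil-gated cells, 12 were at least 2-fold higher, in a class where 32.8% of all genes were, and Ifit1 and Ifi44 were no longer among them at matched depth.

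**Figure D3:**
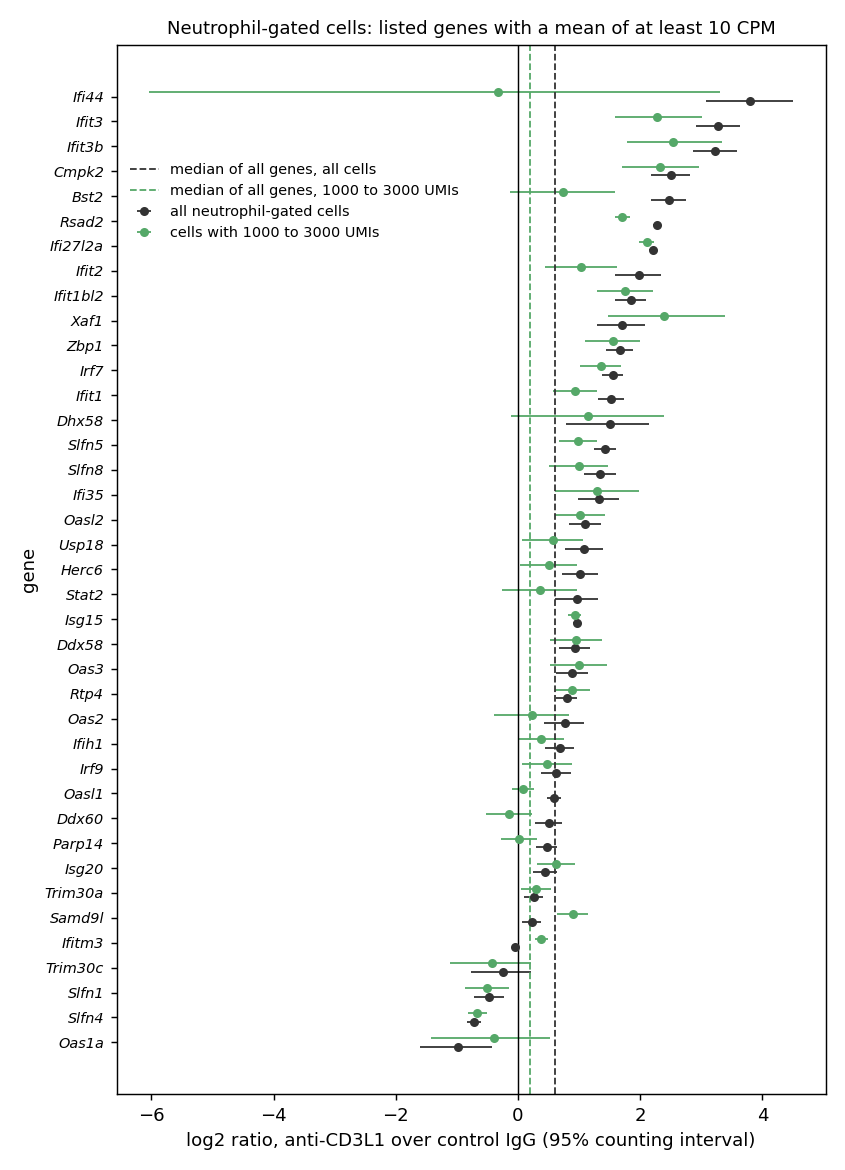
Log2 ratio, anti-CD3L1 against control IgG, (horizontal axis) for the 39 listed genes with a mean of at least 10 CPM in neutrophil-gated cells (vertical axis), over all such cells (dark) and those with 1000 to 3000 UMIs (green), with 95% counting intervals. Dashed lines mark the medians of all genes at 0.60 and 0.19. Rsad2, Ifit3, Ifit3b, Cmpk2 and Ifi27l2a lie to the right of both, and Slfn4 and Slfn1 to the left of 0.

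Monocyte-gated cells, which held the highest summed level in both libraries, showed small differences in most genes. Of 43 listed genes tested, 0 were at least 2-fold higher (background 3.45% of 7213 genes) and 3 at least 2-fold lower (background 1.94%). The median log2 ratio was 0.27 over the listed genes and 0.15 over all genes. The largest ratios were those of Ifih1 (MDA5, a sensor of long double-stranded RNA), from 148 to 239 CPM (0.70), Dhx58 (LGP2, its cofactor), from 25.6 to 40.2 CPM (0.65), and Irf7, from 339 to 527 CPM (0.64). In monocyte-gated cells with 1000 to 3000 UMIs the ratio of Irf7 was −0.19, that of Ifih1 1.18 and that of Dhx58 0.98. These cells lie far under the median depths of the class, 11992 and 7629 UMIs, and no intervals were computed for them. They were unlike the class as a whole, with Ifitm3 at 1004 and 1220 CPM against 3206 and 3095 CPM. The 3 genes at least 2-fold lower were Slfn4, Oas1g and Oas1a. The part of the macrophage markers, which were higher in this class after anti-CD3L1, was not tested.

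Macrophage-gated cells were similar. Of 42 listed genes tested, 0 were at least 2-fold higher (background 1.98% of 7540 genes) and 2, Slfn4 and Slfn1, at least 2-fold lower (background 2.08%). The median log2 ratio was 0.10 over the listed genes and 0.025 over all genes. The interval of the ratio lay above 0 for 16 listed genes, under 0 for 11 and held 0 for 15. The largest ratios were 0.60 for Ifi27l2a, from 1353 to 2051 CPM, 0.58 for Cmpk2, from 16.3 to 24.4 CPM, and 0.57 for Irf7, from 261 to 387 CPM. Rsad2 was at 373 and 522 CPM (0.48). Ifit3b, at 20.4 and 12.8 CPM, and Usp18, at 55.1 and 38 CPM, were lower after anti-CD3L1 in this class, where in neutrophil-gated cells both were higher.

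**Figure D4:**
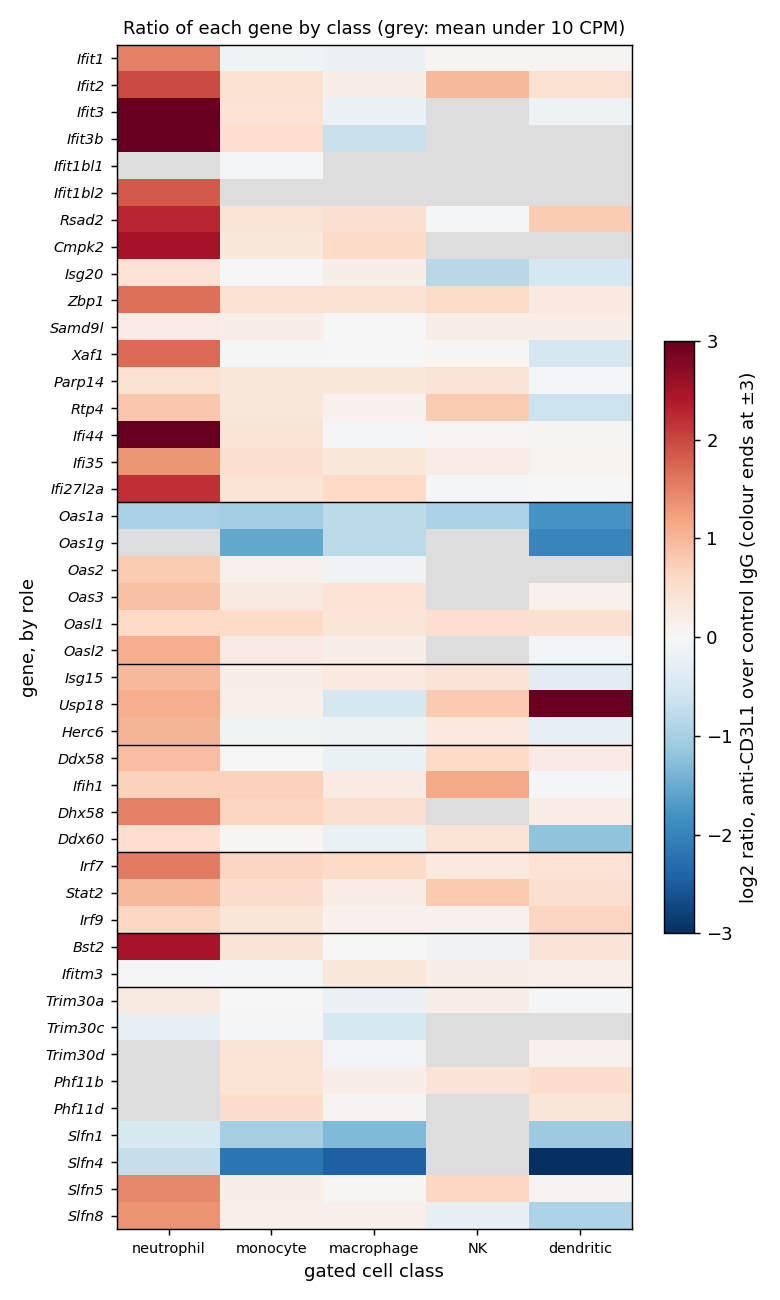
Log2 ratio, anti-CD3L1 against control IgG, (colour, ending at 3 in either direction) for each of the 44 genes, grouped by role (vertical axis), in 5 gated classes (horizontal axis), with grey where the mean is under 10 CPM. The neutrophil column holds 20 genes at least 2-fold higher, and Oas1a, Oas1g, Slfn1 and Slfn4 are blue wherever they could be read.

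The Oas enzymes make short 2′-5′ linked adenylate chains that switch on the nuclease RNase L. Oas1a and Oas1g are near copies, so reads that match both are uncertain. Both were lower after anti-CD3L1 in all 5 classes, although Oas1g in NK-gated cells rests on 3 and 6 UMIs and its interval there holds 0. Oas1a was at 97.4 CPM under control IgG and 47.3 CPM after anti-CD3L1 in monocyte-gated cells, 60.6 and 34.9 CPM in macrophage-gated, 36.5 and 18.5 CPM in neutrophil-gated, 16.2 and 8.33 CPM in NK-gated and 56.3 and 16.5 CPM in dendritic-gated cells. The interval of its ratio lay under 0 in each of the 5 classes, although at matched depth the ratio in neutrophil-gated cells was −0.40 (−1.42 to 0.53). Oas1g was at 36.8 and 12.7 CPM in monocyte-gated and 26.6 and 15.3 CPM in macrophage-gated cells. The other family members did not follow. Oasl1, a relative without that enzyme activity, was higher in all 5 classes, with 513 and 767 CPM in monocyte-gated, 848 and 1096 CPM in macrophage-gated and 333 and 501 CPM in neutrophil-gated cells, where its ratio at matched depth was 0.08 and, relative to the median of all genes, −0.010. Oas2, Oas3 and Oasl2 had ratios between −0.11 and 0.44 in monocyte- and macrophage-gated cells. Of this family, Oas1a, Oas1g and Oas3 have a promoter match, the windows of Oasl1 and Oasl2 hold none and Oas2 has no window. Oas3 had ratios above 0 in all 5 classes, with the interval above 0 in 3 of them. Genes with a match thus lay on both sides of 0. In neutrophil-gated cells 8 of 17 tested genes with a match and 8 of 15 without were at least 2-fold higher, beside 32.8% of all genes.

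The Schlafen genes differed in the same way. Slfn4, known from myeloid cells, was lower after anti-CD3L1 in all 5 classes, each with an interval under 0. In NK-gated cells it had a UMI in only 4.32% and 1.83% of cells. With free RNA subtracted its log2 ratio there was 1.97, at 0.390 and 1.53 CPM, too low to read a direction. Slfn4 was at 730 and 444 CPM in neutrophil-gated cells, 151 and 33.0 CPM in monocyte-gated (log2 ratio −2.19, −2.30 to −2.08), 70.3 and 12.9 CPM in macrophage-gated (−2.45) and 35.2 and 3.64 CPM in dendritic-gated cells (−3.27). Slfn1 was at 135 and 97.7 CPM in neutrophil-gated, 71.9 and 36 CPM in monocyte-gated and 38.8 and 15.4 CPM in macrophage-gated cells. Slfn5 and Slfn8 were not lower in these 3 classes, with Slfn5 at 238 and 270 CPM in monocyte-gated and 78.9 and 212 CPM in neutrophil-gated cells. The free RNA of the control IgG library held 567 CPM of Slfn4 and that of the anti-CD3L1 library 35.8 CPM, so the free RNA moved with the result. So did the summed neutrophil markers, all 12 with a UMI, at 4840 and 879.1 CPM in monocyte-gated, 2373 and 405.6 CPM in macrophage-gated and 1916 and 266.4 CPM in dendritic-gated cells. Per 1000 UMIs of S100a8 and S100a9, the control IgG library held 8.48 UMIs of Slfn4 in free RNA, 43.3 in monocyte-gated, 39.3 in macrophage-gated, 29.4 in dendritic-gated and 8.96 in NK-gated cells. In the anti-CD3L1 library the same measure was 26.0 in free RNA, 138 in monocyte-gated, 137 in macrophage-gated, 139 in dendritic-gated and 72.6 in NK-gated cells. The part of free RNA in the result was not tested further. With free RNA subtracted, Slfn4 in monocyte-gated cells was at 146 and 33.0 CPM. Of the 44 listed genes, 2 (4.55%) had intervals under 0 in all 5 classes and 4 (9.09%), Oasl1, Irf7, Stat2 and Phf11b, had intervals above 0 in all 5, against 0.998% and 2.63% of 9421 genes. At matched depth the neutrophil intervals of Oas1a, Oasl1, Stat2 and Phf11b hold 0.

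The ISG15 system tags proteins with the small modifier Isg15, with Herc6 as a ligase and Usp18 as the enzyme that removes the tag. Isg15 was at 736 and 1435 CPM in neutrophil-gated cells, 689 and 785 CPM in monocyte-gated, 537 and 655 CPM in macrophage-gated, 114 and 151 CPM in NK-gated and 558 and 438 CPM in dendritic-gated cells. It was thus higher after anti-CD3L1 in 4 classes and lower in dendritic-gated cells, although in monocyte-gated cells with 1000 to 3000 UMIs its ratio was −0.14. In neutrophil-gated cells its log2 ratio was 0.96, and 0.93 at matched depth. Usp18 and Herc6 had ratios of 1.08 and 1.02 there, which fell to 0.57 and 0.51 at matched depth.

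Of the RNA sensors in neutrophil-gated cells, Ddx58 (RIG-I) had a log2 ratio of 0.94, Ifih1 of 0.69, Ddx60 of 0.50 and Dhx58 of 1.5. At matched depth the ratio of Ddx58 was 0.95 (0.52 to 1.38), while the intervals of the other 3 hold 0, with ratios of 0.38 for Ifih1, −0.14 for Ddx60 and 1.14 for Dhx58. Irf7, the factor that amplifies interferon production, was higher in all 5 classes, except in monocyte-gated cells with 1000 to 3000 UMIs as given above. In neutrophil-gated cells it was at 77.0 and 225 CPM (1.55, and 1.35 at matched depth). Stat2 and Irf9, subunits of the complex that binds the element, had ratios of 0.97 and 0.63 in neutrophil-gated cells and 0.52 and 0.36 in monocyte-gated cells. At matched depth the neutrophil ratios were 0.36 (−0.27 to 0.97) for Stat2 and 0.48 (0.065 to 0.88) for Irf9.

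Of the membrane proteins, Ifitm3, which blocks viral entry and was the listed gene with the most UMIs, had no ratio of 2-fold in any of the 5 classes. It was at 1675 and 1626 CPM in neutrophil-gated, 3206 and 3095 CPM in monocyte-gated, 1263 and 1562 CPM in macrophage-gated, 147 and 169 CPM in NK-gated and 1504 and 1673 CPM in dendritic-gated cells. In neutrophil-gated cells its ratio was −0.04, and 0.38 at matched depth. Bst2 (tetherin, which holds budding virus at the cell surface) was at 16.8 and 92.7 CPM in neutrophil-gated cells, a ratio of 2.47 that was 0.74 (−0.13 to 1.60) at matched depth. In macrophage-gated cells it was at 523 and 530 CPM. Trim30a and Trim30c had ratios of 0.26 and −0.25 in neutrophil-gated cells. Trim30d, Phf11b and Phf11d were under a mean of 10 CPM there and had ratios of 0.41, 0.42 and 0.53 in monocyte-gated cells.

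In NK-gated cells 29 listed genes were tested, of which 1 was at least 2-fold higher, Ifih1 at 28.9 and 63.5 CPM (background 2.22% of 7694 genes), and 0 at least 2-fold lower (background 1.17%). Rsad2 was at 68.3 and 65.6 CPM and did not differ beyond its interval. In dendritic-gated cells 38 were tested, of which 1 was at least 2-fold higher (background 3.8% of 7575 genes) and 5 at least 2-fold lower (background 4.81%). The higher gene was Usp18, read with only 4 UMIs in the control IgG library, and the lower genes were Slfn4, Oas1g, Oas1a, Ddx60 and Slfn1. Over all cells together 8 of 43 listed genes were at least 2-fold higher (background 19.6% of 7450 genes) and 3 at least 2-fold lower (background 6.39%), a share of 18.6% that is near the background.

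The list was read unevenly from cell to cell. With every cell thinned to 1000 UMIs, the median neutrophil-gated cell held 4 UMIs of the 44 genes under control IgG and 8 after anti-CD3L1, and the 90th percentile stood at 14 and 28. The tenth of these cells with the most held 37.3% and 38.2% of all such UMIs. In monocyte-gated cells the median was 8 and 11 and the 90th percentile 24 in both libraries, so that the shift lay in the lower and middle range. Cells without any such UMI made up 38.9% and 26.6% of NK-gated cells, against 2.87% and 0.515% of monocyte-gated cells.

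**Figure D5:**
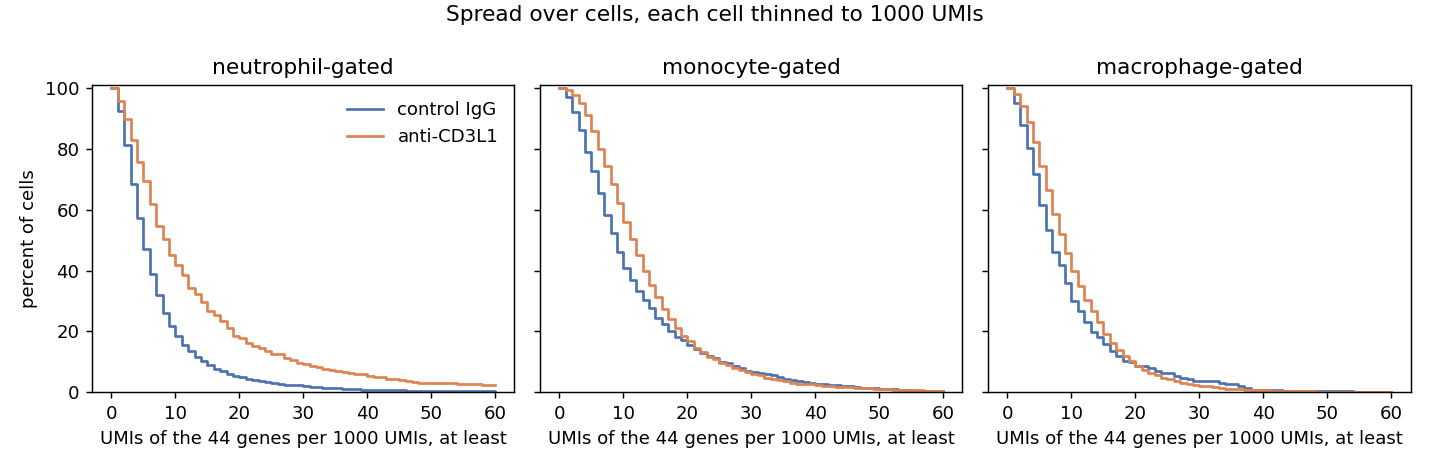
Percent of cells (vertical axis) that hold at least the given number of UMIs of the 44 genes (horizontal axis), with each cell thinned to 1000 UMIs, in neutrophil-, monocyte- and macrophage-gated cells of each library. The curves of neutrophil-gated cells part over most of the range, while those of monocyte-gated cells meet near 24 UMIs.

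Rsad2 had a UMI in 12.8% of neutrophil-gated cells of the control IgG library (11.9 to 13.7%) and in 42.8% of those of the anti-CD3L1 library (38.2 to 47.5%), after thinning. Thinning left out 128 of 5572 and 47 of 498 cells. Unthinned, the shares were 24.6% and 53.0%. NK-gated cells, at 3.70% and 5.1% after thinning, give the level of a class with little of the gene, with unthinned median depths of 10873 and 8716 UMIs. In monocyte-gated cells the thinned shares were 18.7% and 24.4%, and in macrophage-gated cells 18.6% and 24.3%. The other listed genes were read more often in cells that held Rsad2. In neutrophil-gated cells with a UMI of Rsad2 the other 43 genes held 14.7 of 1000 UMIs in the control IgG library, against 4.66 in cells without one, and in the anti-CD3L1 library 16.7 against 5.83. In monocyte-gated cells the values were 21.2 against 8.11 and 17.5 against 10.3. These are descriptions of cells within a library, which are not replicates.

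The ligands were hardly read. Ifnb1 had 83 UMIs under control IgG and 220 after anti-CD3L1 over all cells, of which 54 and 133 lay in macrophage-gated cells, at 10.5 and 3.79 CPM. Ifna1 had 0 UMIs, Ifna2 3 and 1 and Ifna4 1 and 0. Ifng, the type II interferon, was read in NK-gated cells, at 138 and 200 CPM. In neutrophil-gated cells the receptor chains were close between the libraries, with Ifnar1 at 105 and 113 CPM and Ifnar2 at 546 and 519 CPM. There 4 of 4 receptor genes and 4 of 4 inhibitors were tested, and 0 of either list were at least 2-fold higher or lower. Ifnar2 was lower after anti-CD3L1 in monocyte-gated cells (416 and 354 CPM) and macrophage-gated cells (380 and 312 CPM). It was also lower in dendritic-gated cells (279.6 and 190.1 CPM) and higher in NK-gated cells (97.2 and 114 CPM). In monocyte-gated cells 1 of the 4 inhibitors, Socs3, was at least 2-fold lower, at 532 and 252 CPM (all genes 1.94%). Socs3 was also at least 2-fold lower in dendritic-gated cells, at 251.5 and 62.7 CPM (all genes 4.81%). In neutrophil-, macrophage- and NK-gated cells it was lower by less than 2-fold. Of the interferon-gamma targets, 3 of 14 tested in monocyte-gated cells were at least 2-fold higher, Cxcl9 at 18.8 and 112 CPM, Ciita at 11.1 and 55.7 CPM and Irf1 at 111 and 236 CPM, and 0 were at least 2-fold lower. The share of all genes at least 2-fold higher was 3.45% there. In macrophage-gated cells (all genes 1.98%) 3 of 13 were, Gbp2, Iigp1 and Cxcl9, in neutrophil-gated cells 1 of 11, Gbp7, under the 32.8% of all genes, and in dendritic-gated cells (all genes 3.8%) 2 of 13, Gbp2 and Gbp4. Gbp2 and Gbp4 rest on only 17 and 6 UMIs in dendritic-gated cells of the control IgG library. Gbp4, at 6.04 and 15.7 CPM there, met the mean of 10 CPM only through its level after anti-CD3L1. In NK-gated cells 0 of 11 interferon-gamma targets were at least 2-fold higher and 2 at least 2-fold lower, Gbp3 and Gbp5, beside 1.17% of all genes. Of the sensing genes, 2 of 6 tested in neutrophil-gated cells were at least 2-fold higher, Irf5 at 18.9 and 49.9 CPM and Tlr7 at 9.04 and 18.5 CPM, a share near the 32.8% of all genes. In dendritic-gated cells 2 of 10 were at least 2-fold lower, Tlr4 and Ikbke, beside 4.81% of all genes. Cxcl10, which both interferon types raise, was at 384 and 330 CPM in monocyte-gated and 541 and 293 CPM in macrophage-gated cells.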

How the data were processed

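RNA of CD45 bead-sorted cells was measured in 2 libraries, 1 per group. The authors deposited UMI counts per mouse gene and barcode for all barcodes, made with Cell Ranger 7.1.0. The submitters' notes list the build GRCm39, which the count files do not name, so genes were not placed on it, and the coordinates given are those of promoter windows in RefSeq for GRCm38.p6. A deposited table with the authors' own fold changes and p-values for macrophage genes was not used. The libraries held 74850604 and 108246719 UMIs.

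For each class the UMIs of its cells were added up per gene and scaled to CPM. The list and the marker lists were chosen with earlier results of these data known, and the gate thresholds after marker values, but not values of listed genes, were seen. Gates used UMIs of neutrophil, macrophage or monocyte markers per 10000 UMIs (at least 20, 10 and 5), or for rarer classes at least 3 markers detected (2 for plasmacytoid dendritic cells). Cells that passed more than 1 gate besides the monocyte gate, or both the neutrophil and the monocyte gate, were left unassigned, 332 and 464 of them. Macrophage-gated cells and cells of the rarer classes kept their class if they also passed the monocyte gate. Ly6c2, a gene of the monocyte gate, was at 75.2 and 213 CPM in macrophage-gated cells. No doublet caller was run. A gene counted as tested with a mean of at least 10 CPM over the libraries, and as called at a fold of 2. Intervals at 95% are exact Poisson for CPM and exact binomial for ratios and shares, and differences of log2 ratios use the normal approximation of log counts. All cover counting error only. With 1 library per group, tumors cannot be told from treatment, and no p-value was computed. Shares of cells were taken after thinning to 1000 UMIs. On simulated counts of 5775 genes in neutrophil-gated cells, with 200 changed 2-fold, the direction was recovered for 100% and the true ratio lay within its interval for 95% of them. In macrophage-gated cells, with 7540 genes, these shares were 100% and 92%. The simulated counts were Poisson, as the intervals assume. The run therefore checks the calculation only and tells nothing of the spread between cells, tumors or libraries. All listed genes are accounted for. Full values are given for the 6 with the most UMIs and, in neutrophil-, monocyte- and macrophage-gated cells, for the 3 largest and 3 smallest ratios, and genes beyond this rule were named with values already known. The alternatives concerned cell filters, gates, scaling, depth, free RNA and the low-count filter. Python 3.11.15, numpy 2.4.6 and scipy 1.17.1 were used. The list of kinases and signal carriers is not reported here.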

Additional observations from a re-analysis of the deposited data

Results flagged for a closer look

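Barcodes removed for holding 5% or more mitochondrial UMIs were not part of any comparison, and the 44 genes were read there too. Their summed level was 5902 CPM (5811 to 5993) in 1623 such barcodes of the anti-CD3L1 library, above the 4414 CPM (4317 to 4513) in 559 barcodes of the control IgG library. It was flagged as a signal in data left out of the comparisons that exceeds the level in the control library. These sums were not split by cell class. The part of unlike cell classes in the difference was not tested.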

How the results depend on the processing

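The summed log2 ratio was above 0 in all 5 classes under every alternative run. In the order neutrophil-, monocyte-, macrophage-, NK- and dendritic-gated, the following values left the counting interval of the reported ratio. Scaling by the median ratio of all genes gave 0.26, 0.065, 0.27 and 0.11 in the first 4. The stricter gate gave 0.99 (neutrophil), 0.20 (monocyte), 0.32 (macrophage) and 0.24 (dendritic). The mean over cells gave 0.89, 0.20, 0.17 and, for dendritic-gated cells, 0.058. Without the gene with the most UMIs the ratio was 1.09, 0.32 and 0.21 in the first 3, and without the 5% of cells with the most UMIs 0.99, 0.21, 0.24 and, for dendritic-gated cells, 0.0062. Free RNA subtraction gave 0.16 in NK-gated cells. Of the alternatives chosen after seeing the data, cells with 1000 to 3000 UMIs gave 0.80 and 0.081 in neutrophil- and monocyte-gated cells, totals without S100a8 and S100a9 gave 0.69 and cells without a C1q UMI 0.93 in neutrophil-gated cells. In the other 3 classes under 20 cells of a library had 1000 to 3000 UMIs, so this was not run. The causes were not tested.

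Counts of listed genes at least 2-fold higher in neutrophil-gated cells were 11 with at least 50 CPM, 11 under median scaling and 13 at matched depth, and those lower were 1 with no low-count filter, 2 at a fold of 1.5, 3 under median scaling, 1 with free RNA subtracted and 1 at matched depth. In monocyte-gated cells 3 were higher at a fold of 1.5, and 4 higher and 7 lower at matched depth. In macrophage-gated cells 1 was higher and 5 lower at a fold of 1.5, and 0 lower with at least 50 CPM. In NK-gated cells the higher counts were 4 with no filter, 0 with at least 50 CPM, 7 at a fold of 1.5 and 2 without C1q cells, and the lower ones 2 with no filter, 2 at a fold of 1.5, 1 under median scaling and 1 with free RNA subtracted. In dendritic-gated cells they were 2 higher with no filter, 0 higher and 0 lower with at least 50 CPM and 3 higher at a fold of 1.5. Shares of all genes past the same threshold are given above only for neutrophil-gated cells under median scaling and at matched depth. The other counts have no such share beside them and are not read as results about the list. A minimum of 1000 UMIs left every summed CPM value within its interval. Unthinned shares of cells with an Rsad2 UMI were 24.6% and 53.0% (neutrophil), 40.0% and 52.3% (monocyte) and 50.4% and 58.0% (macrophage). Among single genes at least 2-fold apart, Ifi44 in neutrophil-gated cells turned to −0.33 at matched depth and Slfn4 in NK-gated cells to 1.97 with free RNA subtracted. Both were then at counts too low to read a direction. Smaller ratios also changed sign, at matched depth Ddx60 in neutrophil-gated cells to −0.14 and, in monocyte-gated cells, Irf7 to −0.19, Isg15 to −0.14, Ifit2 to −1.07 and Cmpk2 to −0.79. No paired analysis was possible because each group is 1 library. Depth limits small classes, with 1402422 UMIs in neutrophil-gated cells after anti-CD3L1 and 994145 in dendritic-gated cells under control IgG.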

Other observations

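Classes with few cells differed in the list as well. Lymphoid-gated cells held 2045 CPM in 22 control IgG cells and 3872 CPM in 133 anti-CD3L1 cells, with a log2 ratio of 0.92 (0.75 to 1.09). These cells were not alike either. Their markers of T cells or innate lymphoid cells summed to 6315 and 4339 CPM. Macrophage markers summed to 32.3 and 903.6 CPM and monocyte markers to 206.4 and 852.3 CPM. The part of these differences in the ratio was not tested. The fibroblast gate took 16 and 28 cells that were not alike, with 402.6 and 40625 CPM of fibroblast markers and 6271 and 2029 CPM of macrophage markers, so their levels of the list are not compared. Cells left unassigned held 6197 and 8409 CPM. Counting the class with the highest level of each of the 44 genes among the 5 main classes, neutrophil-gated cells led for 12 genes under control IgG and 20 after anti-CD3L1, and monocyte-gated cells for 20 and 18. The same count over all genes was not made. In neutrophil-gated cells 32.8% of all genes tested were at least 2-fold higher after anti-CD3L1, so the count is not read as particular to the list.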
